A study of Mus musculus with 2 samples.

Results

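Cluster 16 is the later of 2 clusters that the authors annotated as early pachytene (eP) in a droplet single-cell RNA-seq experiment on mouse testis, and its members are the 606 cells with that stage name and that cluster number, of 17253 annotated cells in all. The library labelled Zfp541-/- gave 451 of these cells and the WT library gave 155. Both came from adult C57BL/6 testis. The sample titles name whole testis, while the protocol states that tetraploid germ cells had been sorted by flow cytometry before 10x Chromium capture (version 3, 3′ end chemistry). Each genotype is represented by 1 library, the number of animals behind it not given in the sources used here, and the mutant allele is described in the labels as Zfp541-/- alone, so no difference between the libraries has a replicate check and no p-value is given. Zfp541 codes for a nuclear zinc finger factor made in spermatocytes.

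Pachytene is the stage of meiotic prophase in which homologous chromosomes are held together along their length by the synaptonemal complex and recombination matures into crossovers. In males the unpaired arms of the X and Y chromosomes are packed into the sex body and transcriptionally silenced at this stage, which is known as meiotic sex chromosome inactivation. Early pachytene is also the time when the transcription factor A-MYB and the pachytene piRNA pathway come on in mouse spermatocytes, while genes of meiotic entry and zygotene are turned down.

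Levels are unique molecular identifiers (UMIs) summed over the cells of a cluster in 1 library and scaled to 1000000 in all (CPM). Ratios are log2 ratios of such sums with 0.5 UMI added to each, and brackets after a value hold its exact 95% interval, which covers counting error only. Cluster 16 held 3737226 UMIs in the knockout-labelled library and 600969 in the WT library. Its cells had a median of 7818 UMIs (1738 to 28573) and 3052 genes in the knockout-labelled library, against 3393 UMIs (1661 to 13334) and 1649 genes in the WT library. After each cell was thinned to 3000 UMIs, the medians were 1671 genes in knockout-labelled cells and 1534 genes in WT cells, with 6 and 46 shallower cells left out. Mitochondrial transcripts made up a median of 4.12% of a cell's UMIs in the knockout-labelled library and 2.10% in the WT library. No doublet caller was run. The libraries shared 17 cell barcodes, and 1 cell of cluster 16 carried one of them.

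The reads of Zfp541 itself did not follow the genotype label. Cluster 16 had 284 Zfp541 UMIs (76.0 CPM) in the knockout-labelled library and 11 (18.3 CPM) in the WT library. A count taken at the 3′ end checks nothing about an allele that leaves that end transcribed, and the library is called by its label throughout. Every direction between the libraries below rests on that label.

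The 4 markers given for the cluster were all detected in it, but none was highest there. Sohlh2, Mybl1 and Sycp3 were higher in cluster 12 and Piwil1 was higher in mid pachytene (mP), in both libraries. Sohlh2, a helix-loop-helix factor known from differentiating spermatogonia, had 115 CPM in knockout-labelled and 51.6 CPM in WT cells of cluster 16, compared with 197 and 70.4 CPM in cluster 12 and 6.50 and 2.16 CPM in mid pachytene. Piwil1, which encodes the pachytene piRNA-binding protein MIWI, had 663 CPM in knockout-labelled and 494 CPM in WT cells of cluster 16, against 339 and 251 CPM in cluster 12 and 854 and 701 CPM in mid pachytene. Mybl1, which encodes A-MYB, had 125 CPM in knockout-labelled and 79.9 CPM in WT cells of cluster 16, against 130 and 137 CPM in cluster 12. Sycp3, a component of the chromosome axis, had 1957 and 1837 CPM, against 2669 and 2604 CPM in cluster 12. With every cell thinned to the same depth, a Sohlh2 UMI was found in 29.0% (24.8 to 33.4) of knockout-labelled and 16.5% (10.1 to 24.8) of WT cells of cluster 16, whereas 0.116% of 6028 WT cells from diplotene onwards held one. Without thinning these shares were 57.0% of knockout-labelled and 18.1% of WT cells in cluster 16, and 0.464% in the WT cells from diplotene onwards, where the median cell held 12820.5 UMIs. Among the 10 genes with the largest fold over all other cells, Sohlh2 was the only one that belonged to any marker list, and it stands both among the markers given with the label and among the spermatogonial ones. None of the other markers given with the label was in that top 10, so the cells are referred to by their cluster number. Markers of somatic testis cells were near 0. The 8 Sertoli markers summed to 6.15 CPM in knockout-labelled and 9.98 CPM in WT cells, and the 5 red cell markers were at 0 in both.

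On the authors' pseudotime, a whole-number score without a unit whose method is not stated, cluster 16 ran from -21561 to -20761. All 606 cells in that range belonged to it, and the nearest cells outside were a cluster 12 cell at -21562 and a mid pachytene cell at -20758. The clusters abut along this score without mixing. The score comes from the same cells, and its place between the neighbours is a description. Knockout-labelled cells had a median of -21197 and WT cells a median of -21015, so the WT cells lay on average further along the interval. The same 606 cells formed a single cluster at the deposited resolutions 0.2, 0.4, 0.6 and 0.8. At resolution 0.1 they were joined to all 788 cells of cluster 12 and to 104 cells annotated zygotene (Z).

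The X chromosome was largely silent in cluster 16. X-linked genes took 0.0746% (0.0718 to 0.0774) of UMIs in the knockout-labelled library and 0.0564% (0.0506 to 0.0627) in the WT library, against 0.193% and 0.210% in cluster 12. The share in cluster 16 was thus 0.387 times that in cluster 12 (0.371 to 0.404) among knockout-labelled cells and 0.268 times (0.234 to 0.306) among WT cells. Zygotene cells had 0.964% in the knockout-labelled and 0.657% in the WT library, and the first mid pachytene cluster on the pseudotime, number 4, had 0.0472% and 0.0256%. Within cluster 16 the share was 0.0856%, 0.0845% and 0.0546% in the first, middle and last tertile of knockout-labelled cells by pseudotime. The corresponding tertiles of WT cells had 0.0740%, 0.0501% and 0.0410%. The last tertile was lowest in both libraries, while the first and middle tertiles of knockout-labelled cells were nearly equal. Single cells of cluster 16 spread widely, with quartiles of 0.0349% and 0.0868% in the knockout-labelled and 0.0267% and 0.0786% in the WT library. The intervals leave out this spread between cells, and the order of the tertiles is a description.

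**Figure D1:**
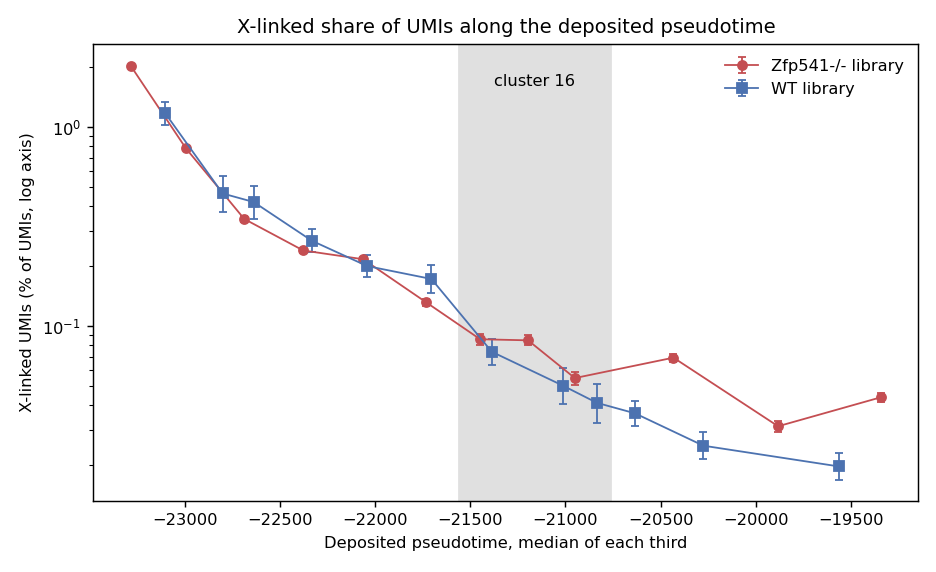
X-linked UMIs as a percent of all UMIs (log axis) against the median pseudotime of each tertile of the cells in zygotene, cluster 12, cluster 16 (grey band) and mid pachytene cluster 4. Circles are the library labelled Zfp541-/-, squares the WT library, and bars the exact 95% counting interval; within cluster 16 the share runs from 0.0856% to 0.0546% over the tertiles of the first and from 0.0740% to 0.0410% over those of the second.

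A few genes held most of what was left of X-linked expression. Ndufa1, a subunit of mitochondrial complex I, supplied 1166 of 2787 X-linked UMIs of cluster 16 in the knockout-labelled library and 155 of 339 in the WT library. Prdx4, a peroxiredoxin of the secretory pathway, supplied 401 and 51. Without Ndufa1, X-linked genes took 0.0434% of UMIs in knockout-labelled and 0.0306% in WT cells. In the same count the share in cluster 16 was 0.315 times (0.299 to 0.333) that of cluster 12 in the knockout-labelled library and 0.20 times (0.168 to 0.238) in the WT library. The X-linked genes followed singly were chosen for at least 50 CPM in cluster 12 of either library, which favours a lower level in cluster 16, so their values are a description. Ndufa1 had 312 CPM in cluster 16 and 552 CPM in cluster 12 among knockout-labelled cells, and 258 and 573 CPM among WT cells. Tsga8, an X-linked testis gene under that limit, had 2.94 CPM in cluster 16 and 1.24 CPM in cluster 12 among knockout-labelled cells, and 25 and 43.6 CPM among WT cells. Fmr1nb, a testis-expressed X-linked gene, had 13.6 CPM in cluster 16 and 65.8 CPM in cluster 12 among knockout-labelled cells, and 4.99 and 80.4 CPM among WT cells. Rpl39, an X-linked ribosomal protein gene, had 143 UMIs (38.3 CPM) in knockout-labelled and none in WT cells of cluster 16, which makes it at least 7.67-fold higher in the first, taking 3 UMIs as the limit for the WT library. Prdx4 was also among the genes that differed most within the cluster, with 147, 123 and 56.2 CPM over the tertiles of knockout-labelled cells and 130, 77.9 and 36.8 CPM over the tertiles of WT cells.

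Between the libraries, the X-linked share of cluster 16 was 1.32 times as high in knockout-labelled as in WT cells (1.18 to 1.48). Without Ndufa1 it was 1.42 times as high (1.22 to 1.66). With all genes the ratio was 0.916 in cluster 12, 1.84 in mid pachytene cluster 4 and 1.96 in all mid pachytene cells. As the median of single cells, the X-linked share ran the other way in mid pachytene. It was 0.0125% in knockout-labelled and 0.0204% in WT cells of cluster 4, and 0.0122% and 0.0136% in all mid pachytene cells. In cluster 16 it was 0.0575% and 0.0444%. The median knockout-labelled cell stood earlier on the pseudotime than the median WT cell, and Rpl39 was at 654 CPM in the 3210 knockout-labelled cells annotated spermatogonia to zygotene. The part of either in the ratio was not tested.

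Relative to cluster 12, few genes differed in the knockout-labelled library. Of 7694 genes with at least 10 CPM in either cluster there, 220 (2.86%) were at least 2-fold higher in cluster 16 and 187 (2.43%) at least 2-fold lower. In the WT library, where cluster 12 held 75 cells and 298408 UMIs against 713 cells and 4846124 UMIs, 721 of 7605 genes (9.48%) were higher and 1185 (15.6%) lower. At that depth 10.1 CPM in WT cluster 12 is 3 UMIs, so counting error weighs on these 2 counts. With a pseudocount of 2 they were 381 and 1185. Of 6938 genes measured in both libraries, 88 were higher by that margin in both and 74 lower in both, while 4 were lower in the knockout-labelled and higher in the WT library and 7 the other way round. The clusters were made from these same genes, so the counts describe the clusters and carry no test.

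Of the 10 genes named for the largest excess over cluster 12 in both libraries, 9 had still higher levels in mid pachytene and Stambp did not. Rbakdn had 567 CPM in cluster 16 and 174 CPM in cluster 12 among knockout-labelled cells, and 1052 and 228 CPM among WT cells, and it reached 2893 and 5071 CPM in mid pachytene. Its log2 ratio of cluster 16 over cluster 12 was 1.71 (1.59 to 1.82) in the knockout-labelled library and 2.20 (1.84 to 2.59) in the WT library. Fbp1, the gluconeogenic enzyme fructose-1,6-bisphosphatase, had 152 CPM in knockout-labelled and 181 CPM in WT cells of cluster 16, compared with 58.8 and 33.5 CPM in cluster 12. Pifo and Cfap206, both known from cilia, had 76.5 and 53 CPM in knockout-labelled cells of cluster 16, and 156 and 113 CPM in WT cells. Stambp, a deubiquitinase that acts at endosomes, was lower again over all mid pachytene cells, with 142 CPM in knockout-labelled and 190 CPM in WT cells. Its level in knockout-labelled cells was 118 CPM in cluster 12, 427 CPM in cluster 16 and 177 CPM in mid pachytene cluster 4, and in WT cells it was 53.6, 245 and 469 CPM. Tmem159 was highest in cluster 16 among these clusters in both libraries, with 37.3, 67.2 and 6.80 CPM in knockout-labelled and 40.2, 113 and 37.8 CPM in WT cells.

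Of the genes named for the largest deficit relative to cluster 12 in both libraries, Hspa5, Pdia4 and P4hb act in protein folding in the endoplasmic reticulum, and H2-D1 and H2-K1 are MHC class I genes. Hspa5, which encodes the chaperone BiP, had 366 CPM in cluster 16 and 1340 CPM in cluster 12 among knockout-labelled cells, and 258 and 1424 CPM among WT cells. The classical MHC class I genes H2-D1 and H2-K1 had 6.15 and 52.7 CPM in knockout-labelled cells of cluster 16, against 51.6 and 164 CPM in cluster 12. In WT cells they had 9.98 and 38.3 CPM in cluster 16 and 50.3 and 174 CPM in cluster 12. Of a list of 9 MHC class I presentation genes that was chosen after values were seen, 4 were measured and these 2 were lower. B2m, the light chain of class I molecules, had 24.9 CPM in cluster 16 and 22.3 CPM in cluster 12 among knockout-labelled cells, and 16.6 and 10.1 CPM among WT cells, and the loading factor gene Tapbp was above its cluster 12 level in both libraries as well. Mif, a cytokine gene, had 24.6 CPM in knockout-labelled and 51.6 CPM in WT cells of cluster 16, compared with 216 and 171 CPM in cluster 12. Epcam, a cell adhesion molecule, was lowest in cluster 16 among the clusters compared here, with 91.4, 17.7 and 46.1 CPM in cluster 12, cluster 16 and mid pachytene cluster 4 of the knockout-labelled library and 83.8, 4.99 and 25 CPM in those of the WT library. The 4.99 CPM rests on 3 UMIs.

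**Figure D2:**
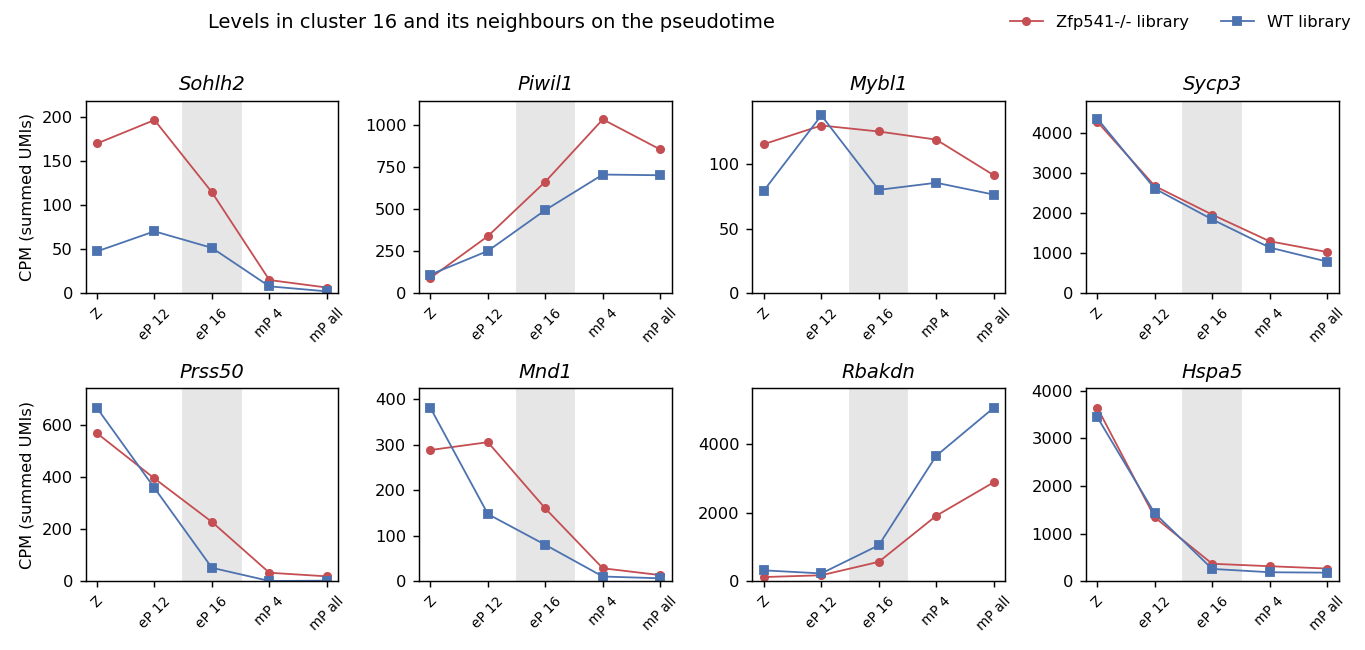
Levels in CPM of 8 genes over zygotene (Z), eP cluster 12, eP cluster 16 (grey band), mP cluster 4 and all mP cells, with circles for the library labelled Zfp541-/- and squares for the WT library, 1 value per library. Sohlh2, Prss50, Mnd1 and Hspa5 run down from cluster 12 through cluster 16 to mP cluster 4 in both libraries, while Piwil1 and Rbakdn run up.

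Endoplasmic reticulum chaperones and folding enzymes were followed as a list of 17 genes that was chosen after their values were seen. Their summed level was 8591 CPM in cluster 12, 4503 CPM in cluster 16 and 3848 CPM in mid pachytene cluster 4 of the knockout-labelled library. In the WT library it was 8797, 4150 and 3186 CPM. In cluster 16, 6 of the 17 were at least 2-fold lower than in cluster 12 among knockout-labelled cells and 7 among WT cells, beside 2.43% and 15.6% of all genes measured. The median log2 ratio was -0.34 in the knockout-labelled library, against 0.02 over all genes, and -0.94 in the WT library, against -0.13. Calreticulin (Calr) had 605 CPM in cluster 16 and 1644 CPM in cluster 12 among knockout-labelled cells, and 421 and 1418 CPM among WT cells. The tertiles of cluster 16 by pseudotime had 875, 552 and 421 CPM of Calr among knockout-labelled cells and 563, 406 and 263 CPM among WT cells. Herpud1, a factor of endoplasmic reticulum-associated degradation, ran the other way, with 38.3 CPM in cluster 16 and 24.3 CPM in cluster 12 of the knockout-labelled library, and 56.6 and 20.1 CPM in those of the WT library. Canx, the membrane chaperone calnexin, had 288 and 351 CPM in knockout-labelled cells and 314 and 318 CPM in the WT library.

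Promoters of these genes are shown because they are among those with the largest steps between the early pachytene clusters. The endoplasmic reticulum stress response element is a textbook feature of chaperone promoters, and it was searched for as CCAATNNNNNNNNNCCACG on both strands. Of 15 list members with a promoter in the RefSeq table (GRCm38.p6, 250 bases before to 50 after the start), 7 held a match, against 39 of 32851 promoters (0.119%) in all. The list was counted by gene and the whole set by promoter. Because the element is known from chaperone promoters, a higher share in this list was fixed beforehand and carries no test. The sequences run 5′ to 3′ on the gene's strand, and capitals mark the match. Hspa5 lies on the forward strand at chr2:34771840-34772139, Calr on the reverse strand at chr8:84846882-84847181 and Pdia4, a protein disulfide isomerase with no match, on the reverse strand at chr6:47813463-47813762.
Hspa5: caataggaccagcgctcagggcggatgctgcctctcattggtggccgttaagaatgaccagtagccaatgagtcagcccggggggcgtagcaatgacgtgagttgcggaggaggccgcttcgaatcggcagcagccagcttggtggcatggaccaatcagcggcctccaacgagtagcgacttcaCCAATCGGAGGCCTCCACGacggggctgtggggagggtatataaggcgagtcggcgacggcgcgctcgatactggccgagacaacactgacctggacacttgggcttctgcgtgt
Calr: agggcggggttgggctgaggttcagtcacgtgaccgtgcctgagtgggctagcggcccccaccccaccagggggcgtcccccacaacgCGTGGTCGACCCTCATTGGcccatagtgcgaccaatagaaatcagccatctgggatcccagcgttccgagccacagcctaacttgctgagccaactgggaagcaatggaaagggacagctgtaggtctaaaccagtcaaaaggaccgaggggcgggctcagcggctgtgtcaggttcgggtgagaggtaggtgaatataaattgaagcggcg
Pdia4: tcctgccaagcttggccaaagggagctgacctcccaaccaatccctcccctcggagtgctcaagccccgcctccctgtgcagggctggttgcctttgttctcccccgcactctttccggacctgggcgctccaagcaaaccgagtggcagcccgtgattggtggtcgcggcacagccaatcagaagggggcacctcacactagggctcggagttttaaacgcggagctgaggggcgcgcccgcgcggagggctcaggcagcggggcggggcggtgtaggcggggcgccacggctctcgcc

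Hspa5 and Calr, which hold the element, had log2 ratios of cluster 16 over cluster 12 of -1.87 and -1.44 in the knockout-labelled library and -2.46 and -1.75 in the WT library. Pdia4, which does not hold these letters in this window, had -1.70 and -2.68. Canx and Dnajc3 also hold a match and had -0.28 and 0.04 in the knockout-labelled library and -0.02 and -0.32 in the WT library. A match in the window is a description of the sequence.

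**Figure D3:**
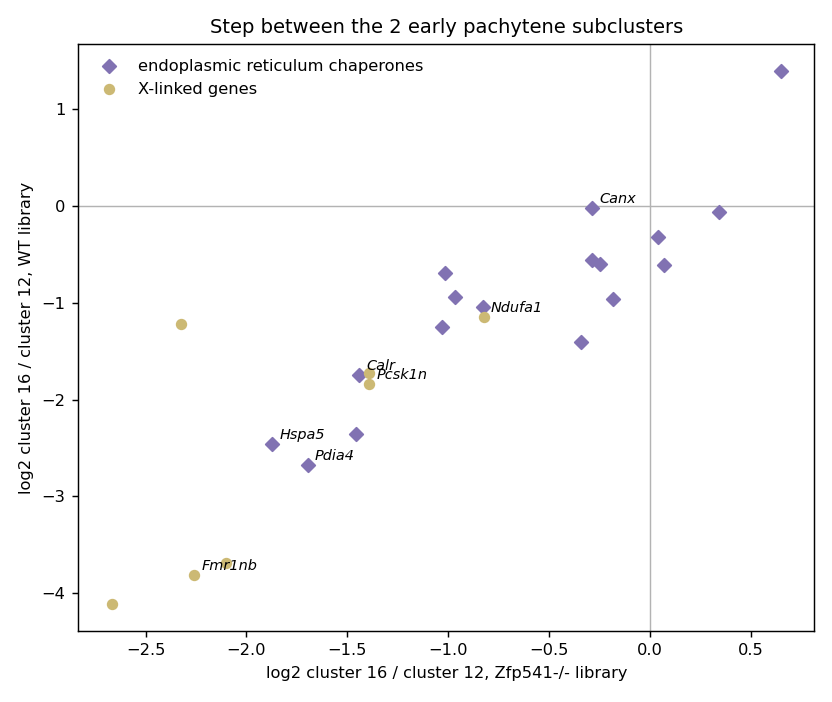
Log2 ratio of cluster 16 over cluster 12 for endoplasmic reticulum chaperones (diamonds, 17 genes) and for X-linked genes with at least 50 CPM in cluster 12 (circles, 7 of 8 genes; Rpl39, with no WT UMI in cluster 16, is not drawn), the library labelled Zfp541-/- on the horizontal and the WT library on the vertical axis. Hspa5 sits at -1.87 and -2.46, and the X-linked genes drawn, whose choice by their level in cluster 12 favours values below 0, lie below 0 on both axes.

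More genes differed by 2-fold from mid pachytene than from cluster 12 in the knockout-labelled library. In the knockout-labelled library 1288 of 7974 genes (16.2%) were at least 2-fold higher in cluster 16 than in mid pachytene and 983 (12.3%) at least 2-fold lower. In the WT library 926 of 7417 genes (12.5%) were higher and 1003 (13.5%) lower. Of 6871 genes measured in both libraries, 432 were higher in both and 490 lower in both. Against mid pachytene cluster 4 alone, which is next on the pseudotime, 7.03% of genes were at least 2-fold higher and 8.15% lower in the knockout-labelled library, and 6.81% higher and 7.95% lower in the WT library. Mid pachytene cells held medians of 18665 UMIs in the knockout-labelled and 7945 in the WT library, more than in cluster 16.

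Of the leptotene-zygotene markers, 6 of 10 measured were at least 2-fold higher than in mid pachytene and 2 lower in the knockout-labelled library. Of all genes there, 16.2% were higher and 12.3% lower. In the WT library 6 of 8 markers were higher and none lower, beside 12.5% and 13.5% of all genes. The following genes were named for the largest excess over mid pachytene in both libraries and do not belong to that marker list. Mnd1, whose protein forms a complex with HOP2 that helps the recombinase DMC1, had 160 CPM in cluster 16 and 13.4 CPM in mid pachytene of the knockout-labelled library, and 79.9 and 6.38 CPM in the WT library. Dazl, an RNA-binding translation regulator of germ cells, had 927 and 146 CPM in knockout-labelled cells and 589 and 90.9 CPM in the WT library. Hat1, which acetylates newly made histone H4, had 229 and 26.7 CPM in knockout-labelled cells, and 265 and 32.8 CPM in WT cells. Gnas, the alpha subunit of the stimulatory G protein, had 203 and 15.6 CPM in knockout-labelled cells and 158 and 16.7 CPM in the WT library. Each of these 4 genes was already lower in cluster 16 than in cluster 12 in both libraries. Tmem159 was higher in cluster 16 than in either neighbour in both libraries. Ei24, named by the same rule, was so in the WT library, with 46.9, 73.2 and 11.9 CPM over cluster 12, cluster 16 and mid pachytene. In the knockout-labelled library Ei24 had 72.8, 59.1 and 7.58 CPM. Prss50, a testis serine protease, had a lower level in the WT than in the knockout-labelled library in both stages. It had 228 CPM in cluster 16 and 18.7 CPM in mid pachytene of the knockout-labelled library, and 51.6 and 1.95 CPM in the WT library.

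Among the genes far below their mid pachytene level were Mgll, which encodes monoacylglycerol lipase, and Smarca2, an ATPase of SWI/SNF chromatin remodelling. Mgll had 21.4 CPM in cluster 16 and 342 CPM in mid pachytene of the knockout-labelled library, and 16.6 and 274 CPM in the WT library. Smarca2 had 8.03 and 60.7 CPM in knockout-labelled cells, and 6.66 and 60.5 CPM in WT cells. Several others were testis transcripts of unassigned role, such as Stpg4 with 19.5 and 403 CPM in knockout-labelled cells and 76.5 and 669 CPM in the WT library.

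Some list sums lay between those of the neighbours and others did not. Members of the synaptonemal complex summed to 7436 CPM in cluster 12, 6661 CPM in cluster 16 and 4348 CPM in mid pachytene of the knockout-labelled library, and to 7192, 6122 and 3191 CPM in the WT library. None of the 8 was 2-fold different from cluster 12 in either library. Crossover maturation genes summed to 969, 1081 and 761 CPM over cluster 12, cluster 16 and mid pachytene of the knockout-labelled library, highest in cluster 16. In the WT library they had 928, 932 and 517 CPM, with clusters 12 and 16 nearly equal. Of 11 measured members, 10 lay above their cluster 12 level in the knockout-labelled library and 4 in the WT library. Transcription regulators had a lower sum in cluster 16 than in cluster 12 or all mid pachytene cells, with 951, 831 and 882 CPM and with 905, 737 and 1064 CPM. Mid pachytene cluster 4 alone had 787 CPM in the knockout-labelled library, below cluster 16, and 839 CPM in the WT library. Of the measured members, 7 of 12 in the knockout-labelled and 5 of 9 in the WT library lay above their mid pachytene level. In the list of HORMAD proteins and the ATR checkpoint, which monitors unsynapsed axes, 5 of 15 members were at least 2-fold higher than in mid pachytene in the knockout-labelled library and 5 of 13 in the WT library, and none lower, beside 16.2% and 12.5% of all genes. Hormad1, an axis protein of unsynapsed chromosomes, had 1673 CPM in cluster 16 and 643 CPM in mid pachytene among knockout-labelled cells, and 2147 and 809 CPM among WT cells. The testis energy enzymes ran upward, with 5334, 8931 and 15660 CPM over cluster 12, cluster 16 and mid pachytene of the knockout-labelled library and 8354, 16468 and 22376 CPM in the WT library. Ldhc, the testis lactate dehydrogenase, led this in cluster 16 with 2185 CPM in knockout-labelled and 3276 CPM in WT cells, against 962 and 1079 CPM in cluster 12. Flagellum and axoneme genes were above their cluster 12 level in 12 of 12 measured members in the knockout-labelled library and 16 of 16 in the WT library, with 3 and 5 of them at least 2-fold higher, beside 2.86% and 9.48% of all genes.

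Within the cluster, genes were named for a gradient over the tertiles that ran the same way in both libraries, so the agreement between libraries is fixed by the choice. Rbakdn had 365, 536 and 776 CPM over the tertiles of knockout-labelled cells by pseudotime and 524, 1141 and 1608 CPM over the tertiles of WT cells. Sohlh2 had 161, 118 and 71.0 CPM among knockout-labelled cells and 82.3, 50.1 and 15.8 CPM among WT cells. Chd3, a chromatin remodeller of the CHD family, had 108, 59.7 and 39.0 CPM among knockout-labelled cells, and 56.3, 55.6 and 26.3 CPM among WT cells. Hars, the histidyl-tRNA synthetase, ran upward with 26.5, 34.0 and 51.5 CPM in knockout-labelled and 17.3, 33.4 and 52.6 CPM in WT cells. The pseudotime was built on the same cells. The pseudotime interval that both libraries' central cells cover ran from -21439.4 to -20889 and left 3 WT cells of the last tertile. Within it, the WT log2 ratio of last over first tertile turned to 1.48 for Sohlh2 and 2.06 for Prdx4.

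Between the libraries, cluster 16 differed broadly. Of 7881 genes with at least 10 CPM in either library, 1606 (20.4%) were at least 2-fold higher in knockout-labelled cells and 686 (8.7%) at least 2-fold lower. The median log2 ratio over all genes was 0.28, and scaling the libraries by the median of ratios instead shifted every value by -0.31 and gave 1038 higher and 1089 lower. Ratios below are best read against that median. Cluster 12, with 1142 of 7915 genes higher (14.4%) and 694 lower (8.77%), and mid pachytene, with 1159 of 7701 higher (15%) and 816 lower (10.6%), also differed between the libraries.

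The 12 genes furthest above WT were also above WT in cluster 12 and in mid pachytene. Tpm1, which encodes a tropomyosin, had 648 UMIs (173 CPM) in knockout-labelled and 2 UMIs (3.33 CPM) in WT cells of cluster 16. At matched depth 38.0% of knockout-labelled cells held a Tpm1 UMI, against 0.917% of WT cells, and 0.149% of WT cells from diplotene onwards. Atp2b1, a calcium pump of the plasma membrane, had 121 and 3.33 CPM. Ptma, which encodes prothymosin alpha, had 1026 CPM in knockout-labelled and 83.2 CPM in WT cells. Asns, asparagine synthetase, had 89.6 CPM on 335 UMIs in knockout-labelled and 1 UMI in WT cells, and Mthfd2, an enzyme of mitochondrial folate metabolism, had 262 and 25 CPM. Tex15, a germ cell protein known from transposon silencing and recombination, had 130 and 8.32 CPM. The histone methyltransferase gene Kmt2a (220 UMIs) and Fam81a (224 UMIs) had no UMI in WT cells and were at least 11.8-fold and 12-fold higher in knockout-labelled cells, taking 3 UMIs as the limit for the WT library. In the 3210 knockout-labelled cells annotated spermatogonia to zygotene, Ptma was at 3214 CPM, Tex15 at 666 CPM and Kmt2a at 170 CPM, above cluster 16, while Tpm1 was at 39.3 CPM and Fam81a at 6.98 CPM, below it. The part of RNA from those cells in the library difference was not tested.

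Some genes differed between the libraries in cluster 16 but not by as much in either neighbour. The rule for such genes names at most 8 in each direction. It named 8 as higher, the most it allows, and 2 as lower in knockout-labelled cells. Chd4, the helicase of the NuRD complex, had 349 CPM in knockout-labelled and 171 CPM in WT cells of cluster 16, with a log2 ratio of 1.02 (0.74 to 1.33). The ratio was 0.36 in cluster 12 and 0.21 in mid pachytene. Brd8, a bromodomain subunit of a histone acetyltransferase complex, had 247 and 110 CPM, a ratio of 1.16 (0.81 to 1.55), against 0.47 and 0.29 in the neighbours. Nsa2, a factor of ribosome assembly, had 161 and 61.6 CPM, a ratio of 1.37 (0.91 to 1.91), against 0.21 and 0.48. In the other direction, 1700108J01Rik had 36.1 CPM in knockout-labelled and 120 CPM in WT cells, a ratio of -1.73 (-2.15 to -1.30), against -0.13 and 0.04. That transcript was also among those higher in the late tertile, with 60.6, 145 and 168 CPM over the tertiles of WT cells. The median over all genes was 0.28 in cluster 16, 0.10 in cluster 12 and 0.15 in mid pachytene. With 0.31 taken off by the other scaling, Chd4, Brd8 and Usp32 would lie under 2-fold. The difference between clusters was not tested.

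**Figure D4:**
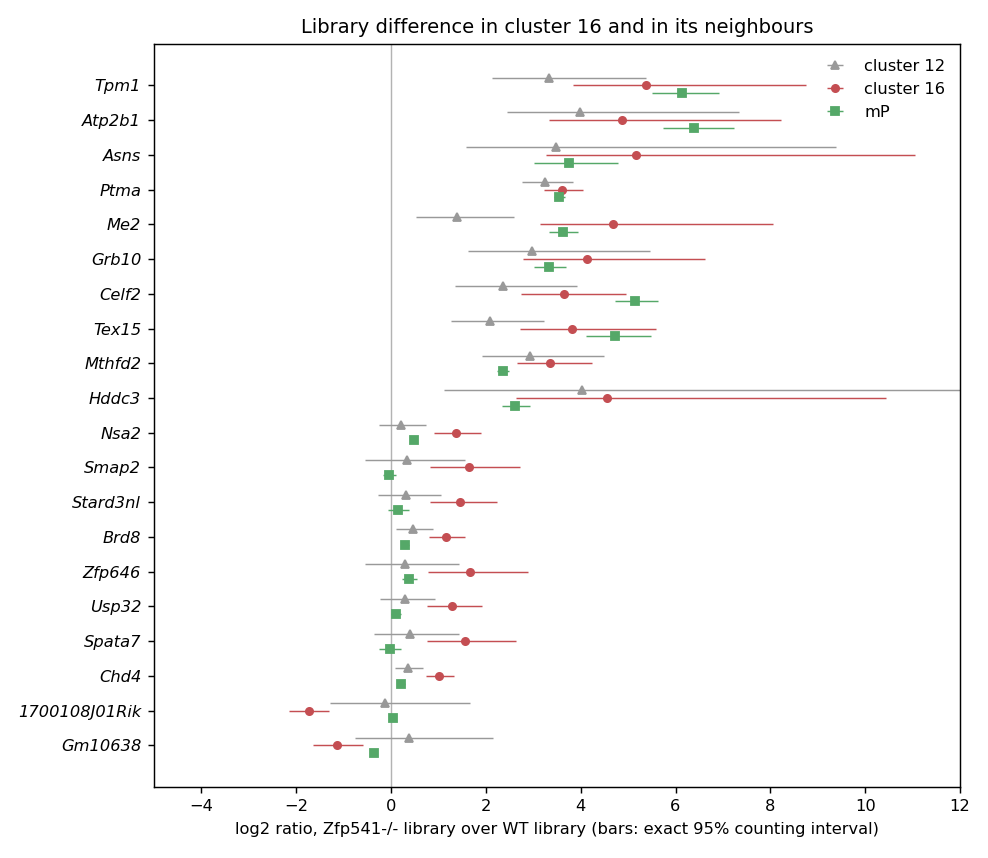
Log2 ratio of the library labelled Zfp541-/- over the WT library in cluster 12 (triangles), cluster 16 (circles) and mP (squares), with exact 95% counting intervals drawn up to 12, for genes named for the largest excess in the first library (from Tpm1 to Hddc3; Fam81a and Kmt2a have no WT UMI and are not drawn) and for genes named as apart in cluster 16 (from Nsa2 down). The first group is above 0 in all 3, while Chd4 sits at 1.02 in cluster 16 and at 0.36 and 0.21 in its neighbours.

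Of the 12 genes furthest below WT, Prm2, Prm1 and Tnp2 belong to the elongating spermatid markers. The protamine genes Prm2 and Prm1, whose products pack sperm chromatin, had no UMI in knockout-labelled cells of cluster 16, against 425 and 95 UMIs in WT cells. A single WT cell, with 12394 UMIs and 3622 genes, held 365 of the 425 Prm2 UMIs. The 9 elongating spermatid markers summed to 3.21 CPM in knockout-labelled and 1083 CPM in WT cells of cluster 16, and to 387 CPM in the WT library without that cell. They summed to 2.27 and 385 CPM in cluster 12, and to 1.78 and 300 CPM in mid pachytene. In knockout-labelled cells 7 of the 9 markers were at 0. The knockout-labelled library held 13 cells annotated diplotene or later and the WT library 6034. In the 122 WT cells annotated spermatogonia to zygotene, Prm1 was at 210.5 CPM, Gm15517 at 118 CPM, Hspb9 at 272 CPM and Dbil5 at 111 CPM, of a similar order as in WT cells of cluster 16, where they had 158, 54.9, 281 and 236 CPM. Other genes of this group were low in those early WT cells. Pou2f2, a POU-domain transcription factor, had 23.5 CPM in knockout-labelled and 168 CPM in WT cells of cluster 16, and 15.5 CPM in the early WT cells. Prps1l1, a testis copy of a phosphoribosyl pyrophosphate synthetase, had 8.56 CPM in knockout-labelled and 125 CPM in WT cells of cluster 16, and 31.0 CPM in the early WT cells. Gm48544 had 15.8 and 213 CPM in cluster 16, and 3.1 CPM in the early WT cells. Kdm6bos is antisense to a neighbouring gene and, with strand use in counting not stated, its 1.61 and 56.6 CPM are uncertain.

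**Figure D5:**
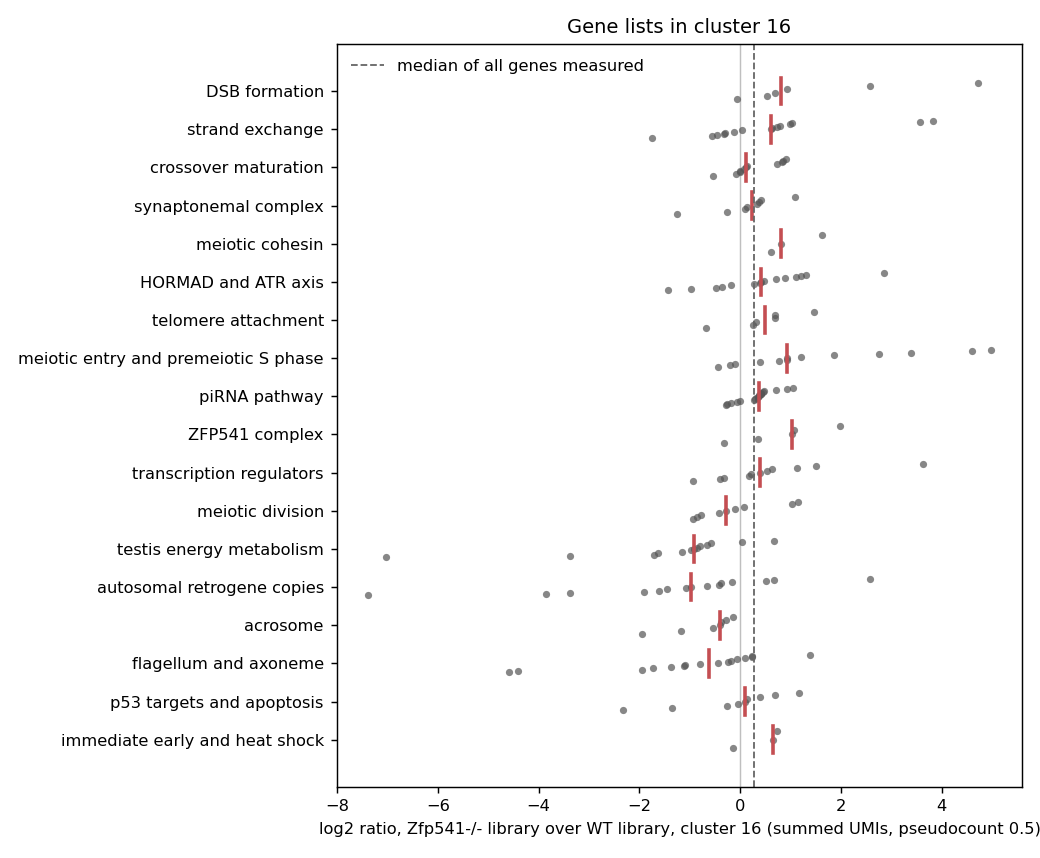
Log2 ratio of the library labelled Zfp541-/- over the WT library in cluster 16 for the members of 18 gene lists with at least 10 CPM in either library (points), with each list's median (vertical bar) and the median of all genes measured, 0.28 (dashed line). Points beyond -6 or of genes with no UMI in 1 library depend on the 0.5 UMI added; the medians run from -0.97 for retrogene copies to 1.03 for the ZFP541 complex.

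List counts between the libraries stand beside 20.4% of all genes at least 2-fold higher and 8.7% lower. Of the genes named below as at least 2-fold higher, Meioc, 4930447C04Rik, Mdc1, Mov10l1, Hdac1, Hdac2, Bub1 and Bub1b would lie under 2-fold with the other scaling. Of 13 measured genes of meiotic entry and premeiotic S phase, 6 were at least 2-fold higher and none lower, and 10 lay above 0, with a median of 0.94. Meioc, which keeps mitotic genes down at meiotic entry, had 391 CPM in knockout-labelled and 168 CPM in WT cells. Hells, a chromatin remodeller needed for DNA methylation, had 503 and 73.2 CPM. Mcm2, a subunit of the replicative helicase, had 98 UMIs in knockout-labelled cells and none in WT cells, whereas Mcm7 of the same complex had 179 and 205 CPM. In the list of double-strand break genes 2 of 6 were at least 2-fold higher and none lower, with a median of 0.81. Zcwpw1, a histone methylation reader that acts with PRDM9, had 584 CPM in knockout-labelled and 96.5 CPM in WT cells, and Spo11, the enzyme that makes the breaks, had 54.9 and 56.6 CPM.

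Of strand exchange genes 3 of 15 were at least 2-fold higher and 1 lower, shares near those of all genes, with a median of 0.61. The subunits of the single-strand binding protein RPA did not move together. Rpa3 had 149 CPM in knockout-labelled and 11.6 CPM in WT cells, a log2 ratio of 3.58 (2.62 to 5.00), while Rpa2 had 58.3 and 195 CPM, a ratio of -1.74 (-2.07 to -1.40). Dmc1, the meiotic recombinase, had 41.5 and 39.9 CPM. In crossover maturation, none of 11 members was 2-fold different, and the median was 0.13. Cntd1, a cyclin-like protein of crossover sites, had 332 CPM in knockout-labelled and 331 CPM in WT cells. In the synaptonemal complex, 1 of 8 was higher and 1 lower, with a median of 0.23. The lower one was Syce2, a central element protein, with 172 CPM in knockout-labelled and 411 CPM in WT cells. The higher one was 4930447C04Rik, with 245 and 115 CPM.

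Of the 3 measured cohesin genes, Smc1b, the meiotic SMC1 subunit, had 1097 CPM in knockout-labelled and 356 CPM in WT cells, and the median was 0.82. In the HORMAD and ATR list, 4 of 15 were at least 2-fold higher and 1 lower, with a median of 0.42. Mdc1, the adaptor that spreads phosphorylated H2AX over the sex body, had 330 CPM in knockout-labelled and 133 CPM in WT cells, a ratio of 1.30 (0.98 to 1.66). H2afx itself had 327 and 882 CPM, a ratio of -1.43 (-1.58 to -1.28). In the telomere attachment list 1 of 6 was higher and none lower, with a median of 0.50. Terb1, which links telomeres to the nuclear envelope, was that gene, with 75.7 and 26.6 CPM. The piRNA list had a median of 0.38, near that of all genes, and 1 of 19 members at least 2-fold higher, the helicase gene Mov10l1 with 635 CPM in knockout-labelled and 308 CPM in WT cells.

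Of the 5 measured genes of the ZFP541 complex, 3 were at least 2-fold higher and none lower, with a median of 1.03. Zfp541 was one of them. Hdac1 and Hdac2, its histone deacetylases, had 266 and 106 CPM in knockout-labelled cells and 130 and 49.9 CPM in WT cells, whereas Kctd19 had 186 and 145 CPM. Of 11 transcription regulators, 3 were higher and none lower, with a median of 0.39. In the meiotic division list 2 of 9 were higher, near the share of all genes, and none lower, with a median of -0.27. They were Bub1 and Bub1b of the spindle checkpoint, with 103 and 82.9 CPM in knockout-labelled and 49.9 and 36.6 CPM in WT cells. Cdk1, the mitotic kinase, had 99.0 and 190 CPM.

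The lists of later functions lay below the median of all genes. Of 13 testis energy enzymes, 5 were at least 2-fold lower in knockout-labelled cells and none higher, with a median of -0.91. Cox6b2, a testis subunit of cytochrome c oxidase, had 888 CPM in knockout-labelled and 2759 CPM in WT cells, and Ldhal6b, a testis lactate dehydrogenase, had 203 and 662 CPM. Among autosomal retrogene copies 7 of 15 were lower and 1 higher, with a median of -0.97. Cetn1, a testis centrin, had 129 CPM in knockout-labelled and 479 CPM in WT cells. Of flagellum genes 7 of 16 were lower and 1 higher, with a median of -0.62. Ropn1l, a protein of the sperm fibrous sheath, had 1022 and 2223 CPM, and the higher one, the axonemal dynein chain Dnah8, had 395 and 150 CPM. Of acrosome genes 2 of 7 were lower and none higher, with a median of -0.41. The elongating spermatid markers given above moved with all 4 of these lists, and the WT cells lay later on the pseudotime. The part of either in the values of these lists was not tested. The pseudotime interval that both libraries' central cells cover held 326 knockout-labelled and 91 WT cells. Over all 8009 genes measured there, 1538 were at least 2-fold higher and 792 lower.

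Of 9 measured p53 target and apoptosis genes, 1 was at least 2-fold higher and 2 lower in knockout-labelled cells, with a median of 0.10. Bax, a pro-apoptotic member of the BCL2 family, had 122 CPM in knockout-labelled and 113 CPM in WT cells. Of 3 measured immediate early and heat shock genes none was 2-fold different, with a median of 0.65. The lists share some members, and genes with near-identical copies, among them Ptma and the retrogenes, are uncertain where reads could be split.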

How the data were processed

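Droplet 3′ RNA-seq of 1 library labelled Zfp541-/- and 1 WT library was used. The submitters' processing notes name Cell Ranger 3.1.0, Seurat 3.2.0 and the mm10 build. The deposited matrices hold UMI counts with no normalisation. A deposited table lists, for each cell, its stage, its cluster, the percent of mitochondrial UMIs and a pseudotime score; the method behind that deposited score is not stated.

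All annotated cells were kept. UMIs were summed per cluster and library over 31053 genes (Python 3.11.15, numpy 2.4.6, scipy 1.17.1, pandas 2.3.3). Ratios had a pseudocount of 0.5 and exact conditional binomial 95% intervals, shares Clopper-Pearson intervals. Genes with at least 10 CPM in the higher group were counted past 2-fold. With 1 library per genotype no test was run. The ratio code was tested on simulated data.

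Members and lists were chosen with earlier results of these data known. Named genes had at least 50 CPM in the higher group. Between clusters, and between the first and last tertile, they were ranked by the smaller of both libraries' absolute log2 ratios, and between libraries by the interval bound nearest 0. Genes apart in cluster 16 had a library ratio of at least 2-fold there with that bound past 1.5-fold, and under 1.4-fold in cluster 12 and mid pachytene. The number of genes that a rule could name in each direction was capped. Of each list, the members of highest level and those past 2-fold could be named. The other genes mentioned, among them Herpud1, Canx, Dnajc3 and Mcm7, were picked after their values were seen. Not every gene that the rules name is reported here.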

Additional observations from a re-analysis of the deposited data

Results flagged for a closer look

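The following genes had a log2 ratio of cluster 16 over a neighbour that ran opposite ways in the 2 libraries, with both counting intervals clear of 0. With 1 library per genotype these differences were not tested.

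Relative to cluster 12, the ratio of Me2, a malic enzyme gene, was 0.36 in the knockout-labelled library and -2.94 in the WT library. Ttc30a2, an intraflagellar transport gene, had -0.93 in the knockout-labelled library and 1.15 in the WT library. Rpa2, the RPA subunit that was also lower in knockout-labelled cells of cluster 16, had -0.46 and 0.56. Mdc1, the sex body adaptor, had 0.27 and -0.6.

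Relative to mid pachytene, Usp32, a deubiquitinase gene, had a ratio of 0.47 in the knockout-labelled library and -0.72 in the WT library. Pou2f2 ran the other way with -0.7 and 0.59. Rpa3 had 0.54 and -1.03. It is flagged for this step only, and Rpa2 for the step from cluster 12 only. Syce3, a central element gene of the synaptonemal complex, had -0.16 and 1.19. Atr, the checkpoint kinase gene, had 0.09 and -0.38, Ccnb2, a cyclin gene, had -0.17 and 0.54, and Mdm2, the p53 regulator, had 0.24 and -0.41.

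The 2 widest gaps were in retrogene copies. Timm8a2 had 3.56 in the knockout-labelled library, with 12.3 CPM in cluster 16 and 1.05 CPM in mid pachytene, and -1.06 in the WT library, with 33.3 and 71.0 CPM. Wdr20rt had 3.5 in the knockout-labelled library, with 10.4 and 0.922 CPM, and -0.74 in the WT library, with 31.6 and 54.2 CPM.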

How the results depend on the processing

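No paired analysis was possible because each genotype had 1 library. Each count of genes at least 2-fold higher and lower was recomputed under other settings. Library scaling by the median of ratios gave 1038 and 1089 between the libraries in cluster 16. A minimum of 50 CPM gave 546 and 256 between libraries, 49 and 46 over cluster 12 in the knockout-labelled and 195 and 276 in the WT library, and 453 and 505 over mid pachytene in the knockout-labelled and 320 and 433 in the WT library. With no minimum these became 2636 and 3955, 2100 and 2615, 1627 and 2651, 6708 and 2125, and 6152 and 1766, in the same order. The number of genes measured changed with the minimum. In that order it was 7881, 7694, 7605, 7974 and 7417 under the main setting. It was 3857, 3851, 3634, 4056 and 3559 at 50 CPM, and 14846, 15825, 12147, 18212 and 16492 with no minimum. Counts under different minimums therefore rest on different sets of genes and cannot be compared directly. A pseudocount of 2 gave 381 higher than cluster 12 in the WT library. Thinning to 3000 UMIs left out shallower cells, among them 42 of 75 WT cells of cluster 12 and 46 of 155 WT cells of cluster 16. It gave 352 higher than cluster 12 in the knockout-labelled library. In the WT library it gave 2157 lower, a count that rests on 33 cells of cluster 12.

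Without cells above 5% mitochondrial UMIs, the X-linked share in the knockout-labelled library was 0.0698% in cluster 16, 0.176% in cluster 12 and 0.0347% in mid pachytene, and the Y-linked share was 0.00131% in cluster 16 and 0.00331% in cluster 12. Without cells over 2 times the median UMIs the knockout-labelled X-linked share was 0.173% in cluster 12 and 0.0349% in mid pachytene, and the Y-linked share was 0.00377% in cluster 12. As the median of single cells, the X-linked share was 0.0575% in knockout-labelled and 0.0444% in WT cells of cluster 16, 0.132% and 0.149% in cluster 12, and 0.0122% and 0.0136% in mid pachytene, and the Y-linked share was 0 in all of them.

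Within the pseudotime interval that both libraries' central cells cover, 3 WT cells of the last tertile were left. There the log2 ratio of last over first tertile turned to 2.06 for Prdx4, 0.45 for Nucb1 and 1.48 for Sohlh2. The cause was not tested. Of the remaining values of single genes and lists, 2627 stayed within the limits set for them, for a single gene its counting interval, and 103 did not. A changed minimum cannot move the ratio of a single gene. The 269 values that stayed under the 50 CPM minimum, and the 269 under no minimum, are therefore no check on single genes. Of the clusters set against each other, WT cluster 12 held the fewest UMIs, 298408, and the X-linked share of WT zygotene cells rests on 63044 UMIs.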
